A study of Mus musculus with 6 samples.

Results

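Telencephalic patterning and proneural factors are transcription factors that give forebrain progenitors their regional and neuronal identity. The 9 genes described here are Gsx1, Gsx2, Dlx1, Dlx2, Dlx5, Nkx2-1, Pax6, Emx2 and Neurog2. They were found by their symbols among the 22322 genes of the authors' deposited table, and all 9 were present. They were chosen by their role and by their PTN against Control differences in these same libraries, which were known when the list was drawn up. Their PTN against Control values are therefore given as a description.

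In the embryonic mouse forebrain, progenitors of the dorsal part (the pallium) use Pax6, Emx2 and Neurog2 and give rise to glutamatergic neurons. Progenitors of the ventral part (the ganglionic eminences) use Gsx1, Gsx2, Nkx2-1 and the Dlx genes and give rise to GABAergic neurons and, at later stages, to oligodendrocytes. Gsx2 and Pax6 oppose each other at the boundary between these territories. In mouse progenitors Gsx2 is known to hold cells in an undifferentiated state, whereas Gsx1 promotes their maturation and represses Gsx2.

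RNA was sequenced from wild-type (WT) mouse neural stem progenitor cells (NSPCs), cultured cells that renew themselves and can form neurons and glia, 24 h after treatment. The PTN group had 3 libraries of cells given PTN, read here as pleiotrophin, a secreted growth factor, and the Control group had 3 libraries of cells given PBS. The series title speaks of conditioned medium, and the sources used here do not state the dose, nor the brain region, age and number of animals behind the cells. No label says whether replicates are separate cultures, so n counts libraries here, and the source of the spread between them is not known.

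Libraries held 19267764 to 26341745 expected counts. Mitochondrial DNA transcripts took 3.97 to 8.12% of them in PTN libraries and 4.47 to 7.47% in Control libraries. A sum of 4 Y-linked genes (Uty, Kdm5d, Ddx3y and Eif2s3y) lay at 7.96 to 74.2 CPM (counts scaled to a common library size, with TMM factors that correct for composition) in PTN libraries and 49.3 to 102 CPM in Control libraries, and PTN 3 was the lowest. The 10 markers of neural stem and progenitor cells (Sox2, Nes, Vim and others) were all counted and summed to 10800 to 11800 CPM in PTN libraries and 8000 to 9070 CPM in Control libraries, led by Vim, at 5165 CPM in PTN cells and 3448 CPM in Control cells, with 7 positive and 3 negative log2 fold changes.

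The RefSeq table of promoters (GRCm38.p6, 250 bases before and 50 after the start of the gene) held 9 windows for 8 of the 9 genes, with a pair of windows for Pax6. The promoters of Gsx2 and Neurog2 are shown because these genes had the largest fold changes, and that of Gsx1 was added, after the values were seen, because it moved against Gsx2. Capitals mark each CANNTG, the E-box letters that basic helix-loop-helix factors bind, and all 3 lie on the plus strand of the genome, at chr5:75075351-75075650 for Gsx2, chr3:127632886-127633185 for Neurog2 and chr5:147188446-147188745 for Gsx1.
Gsx2: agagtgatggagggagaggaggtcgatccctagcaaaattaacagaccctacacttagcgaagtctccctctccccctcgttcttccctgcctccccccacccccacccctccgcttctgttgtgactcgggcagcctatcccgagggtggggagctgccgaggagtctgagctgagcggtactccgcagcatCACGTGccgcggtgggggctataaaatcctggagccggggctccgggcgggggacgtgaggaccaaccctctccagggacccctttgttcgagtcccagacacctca
Neurog2: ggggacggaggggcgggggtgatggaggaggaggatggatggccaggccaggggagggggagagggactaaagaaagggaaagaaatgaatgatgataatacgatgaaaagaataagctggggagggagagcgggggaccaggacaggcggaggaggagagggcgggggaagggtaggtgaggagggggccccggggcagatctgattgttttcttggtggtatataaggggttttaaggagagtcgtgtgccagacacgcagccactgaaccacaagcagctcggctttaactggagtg
Gsx1: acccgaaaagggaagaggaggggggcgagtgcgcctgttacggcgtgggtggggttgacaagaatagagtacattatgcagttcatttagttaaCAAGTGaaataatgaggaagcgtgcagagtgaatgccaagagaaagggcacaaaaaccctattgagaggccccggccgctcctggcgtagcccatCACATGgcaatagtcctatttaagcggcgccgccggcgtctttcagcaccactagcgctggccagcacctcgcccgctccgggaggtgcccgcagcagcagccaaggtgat
The Gsx2 window held 1 E-box, the palindrome CACGTG, the Gsx1 window 2 (CAAGTG and CACATG) and the Neurog2 window 0. CANNTG, searched on both strands, was found in 5 of the 9 windows of these factors and in 72.3% of all 32851 windows in the table. The homeodomain core TAATTA and the TGGGAA core of the Notch effector RBPJ, also searched on both strands, each occurred in 1 of the 9 windows, that of Emx2. Of all windows, 5.29% held TAATTA and 25.6% held TGGGAA.

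Of the 9 factors, 8 passed the filter on low counts and were tested with 13161 genes in all. Genes whose adjusted p was under 0.05 in edgeR's quasi-likelihood test are named called, and "rose" and "fell" are used of called genes. After PTN, Gsx1 and Emx2 rose and Gsx2 and Neurog2 fell, and Dlx1, Dlx2, Pax6 and Nkx2-1 were not called. Gsx2, Nkx2-1 and Neurog2 passed the filter through their Control counts, with at most 5, 23 and 2 counts in any PTN library. Genes so low in PTN cells were tested only because Control was higher, so a fall could be called but not a rise. Over all tested genes 7.99% were called, 4.93% higher and 3.06% lower. The list was made with these calls known, and nothing is read from its count against that background. The PTN and Control values of 7 of the 8 tested factors did not overlap, as in 32.9% of all tested genes. In bulk RNA, fewer cells of a type and less RNA per cell cannot be told apart.

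**Figure D1:**
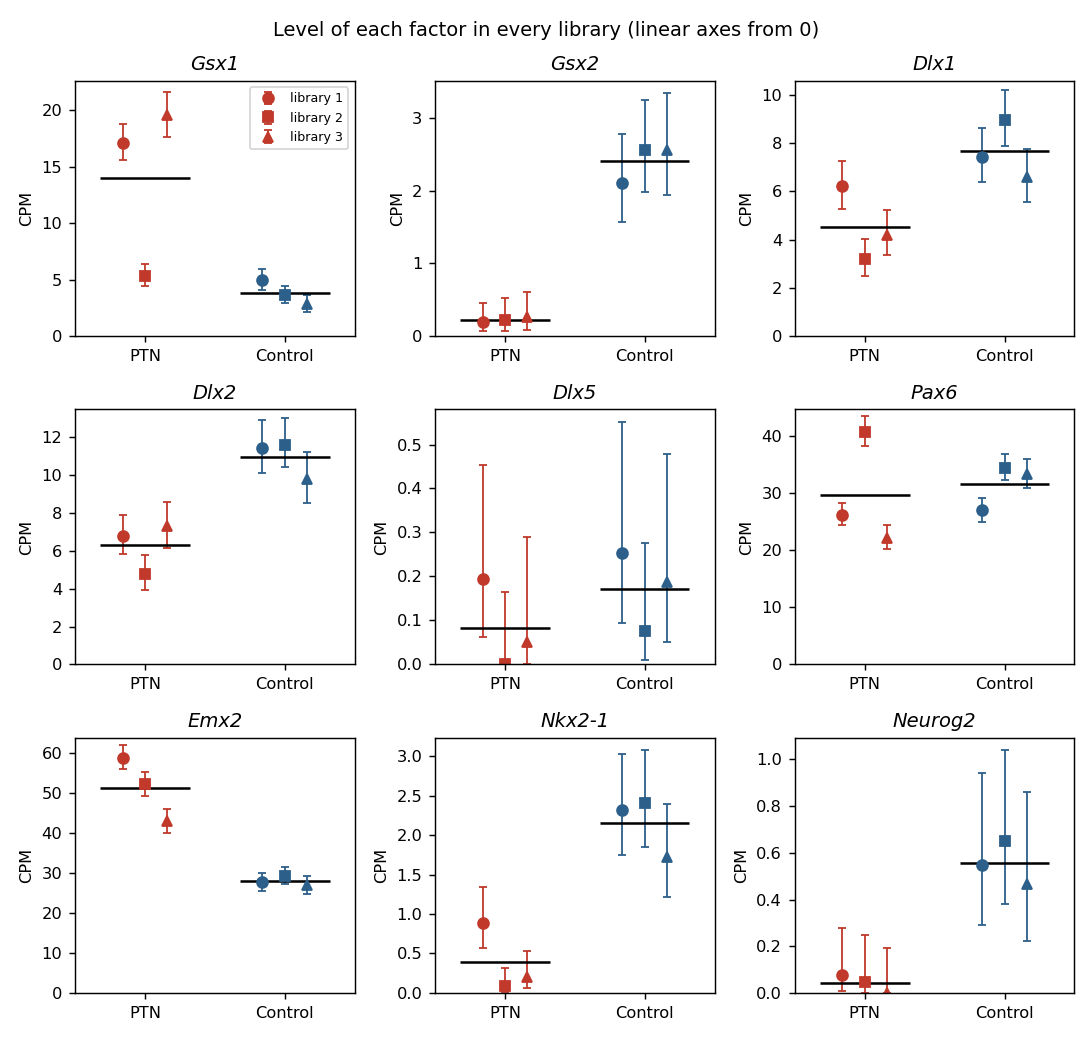
TMM-scaled CPM of the 9 factors in every library, PTN left and Control right, on linear axes from 0; symbols mark libraries 1 to 3, vertical bars are exact Poisson 95% intervals that cover counting error only, and horizontal bars are group means. Gsx2 lay at or under 0.26 CPM in all 3 PTN libraries and at or above 2.11 CPM in all 3 Control libraries, while Gsx1 lay higher in PTN libraries with PTN 2 at 5.35 CPM, near Control 1 at 4.94 CPM.

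Among the ventral factors, Gsx2 and Gsx1, close relatives of the same homeobox family, went in opposite directions. Gsx2 was counted 5, 5 and 5 times in PTN libraries 1 to 3, against 50, 67 and 55 times in Control libraries 1 to 3. The 3 PTN libraries were alike and each lay far under every Control library. In CPM this was 0.226 ± 0.0331 in PTN cells and 2.42 ± 0.262 in Control cells (SD, n = 3 each), which is -3.40 ± 0.36 as a log2 fold change (SE). Gsx2 was called lower whichever library was left out, with log2 fold changes of -3.52 to -3.30. Within each group its counts spread no more than counting error gives, with a chi-square per degree of freedom of 0.108 in PTN and 0.673 in Control.

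Gsx1 was counted 441, 120 and 376 times in PTN libraries 1 to 3, against 117, 94 and 60 times in Control libraries 1 to 3. PTN 1 and PTN 3 stood well above all Control libraries, at 17.1 and 19.6 CPM, whereas PTN 2, at 5.35 CPM (exact Poisson 95% interval 4.44 to 6.40), was just above Control 1, at 4.94 CPM (4.09 to 5.93). Gsx1 averaged 14.0 ± 7.6 CPM in PTN cells and 3.78 ± 1.08 CPM in Control cells (SD, n = 3 each), which is 1.88 ± 0.45 as a log2 fold change (SE). Its counts spread far more than counting error in the PTN group, with a chi-square per degree of freedom of 90.7, against 6.98 in the Control group. The call on Gsx1 was lost without PTN 1, Control 1, Control 2 or Control 3, with log2 fold changes of 1.71, 2.09, 1.80 and 1.66 in turn, and was kept without PTN 2, at 2.27, and without PTN 3, at 1.57. It was also lost by limma-voom and by limma on FPKM, with log2 fold changes of 1.71 and 1.68.

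FPKM (fragments scaled to gene length and library size, as the authors deposited them) allows levels to be compared between genes. In FPKM, Gsx1 exceeded Gsx2 79.8-, 23.3- and 68.8-fold in PTN 1, PTN 2 and PTN 3, against 2.19-, 1.27- and 1.03-fold in Control 1, Control 2 and Control 3. The pair was thus near parity in Control cells and far apart in every PTN library, also in PTN 2, where Gsx1 was low. The PTN ratios rest on the 5 counts of Gsx2 in each library.

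Nkx2-1, which specifies the medial ganglionic eminence, was counted 23, 2 and 4 times in PTN libraries 1 to 3, against 55, 63 and 37 times in Control libraries 1 to 3. Every PTN library lay under every Control library, but PTN 1 held most of the PTN counts. The level was 0.397 ± 0.434 CPM in PTN cells and 2.16 ± 0.369 CPM in Control cells (SD, n = 3 each). The log2 fold change was -2.37 ± 0.63 (SE), and Nkx2-1 was not called. Its call depended on the processing: it was called lower in 8 of 16 alternatives, among them DESeq2, limma-voom and the fit without PTN 1. Without PTN 1 its log2 fold change was -3.84, resting on 6 PTN counts.

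Dlx2 and Dlx1, neighbouring genes that act downstream of Gsx2 in GABAergic differentiation, were lower by less. Dlx2 was counted 175, 107 and 140 times in PTN libraries 1 to 3, against 270, 304 and 209 times in Control libraries 1 to 3, or 6.28 ± 1.33 CPM in PTN cells and 10.9 ± 1.01 CPM in Control cells (SD, n = 3 each). The groups did not overlap, and the log2 fold change of -0.80 ± 0.21 (SE) was not called. Dlx2 was called lower in 4 of 16 alternatives, namely DESeq2, upper-quartile scaling, no low-count filter and the fit without PTN 3, with log2 fold changes of -0.80, -0.85, -0.81 and -0.92 in turn.

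Dlx1 was counted 160, 72 and 81 times in PTN libraries 1 to 3, against 176, 235 and 141 times in Control libraries 1 to 3. Its CPM values did not overlap, at 3.21 to 6.21 in PTN libraries and 6.60 to 8.98 in Control libraries, but its FPKM values did, at 1.08 to 2.11 and 1.97 to 2.40. The log2 fold change was -0.75 ± 0.27 (SE) and was called in no alternative. In GENCODE M21, exons of the antisense gene Dlx1as share 335 bases, or 6.21%, of the exon bases of Dlx1. Dlx1as is not among the genes analysed here and no source used here states how strand was handled in counting, so reads of Dlx1 and Dlx1as cannot be told apart there. Dlx2 stood at 1.29, 1.80 and 2.13 times the FPKM of Dlx1 in PTN 1, PTN 2 and PTN 3 and at 1.93, 2.09 and 2.02 times in Control 1, Control 2 and Control 3, with overlapping groups.

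Dlx5, which acts later in the same differentiation, was the member that failed the filter on low counts. It was counted 5, 0 and 1 times in PTN libraries 1 to 3, against 6, 2 and 4 times in Control libraries 1 to 3, and the groups overlapped. Summed over the group, 6 PTN and 12 Control counts give a depth-scaled ratio of 0.528, with an exact 95% interval of 0.163 to 1.52 that covers counting error only. A difference was not detectable at this depth. Its neighbour Dlx6 had 0 counts over the PTN libraries and 6 over the Control libraries, and was not tested either.

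Among the dorsal factors, Emx2 rose and Pax6 did not differ beyond its spread. Emx2, a homeobox gene that sets the size of the caudal cortex and hippocampus, was counted 1516, 1170 and 825 times in PTN libraries 1 to 3, against 656, 766 and 576 times in Control libraries 1 to 3. Its Control libraries lay within 27.0 to 29.3 CPM and all PTN libraries above them, at 42.9 to 58.8 CPM. The mean was 51.3 ± 7.99 CPM in PTN cells and 28.0 ± 1.18 CPM in Control cells (SD, n = 3 each), and the log2 fold change 0.87 ± 0.16 (SE). The call was lost without Control 1, Control 2 or Control 3, where the log2 fold change was 0.84, 0.87 and 0.81 in turn. The antisense gene Emx2os shares 264 exon bases, or 8.79%, with Emx2, and the same limit as for Dlx1as holds.

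Pax6, the paired-box factor of pallial progenitors, was counted 675, 912 and 425 times in PTN libraries 1 to 3, against 638, 900 and 712 times in Control libraries 1 to 3. PTN 2 was the highest of the 6 libraries, at 40.7 CPM, and PTN 3 the lowest, at 22.1 CPM, so that the PTN libraries enclosed all Control libraries. The log2 fold change was -0.09 ± 0.23 (SE). The order of the 3 PTN libraries was the reverse of that for Gsx1, which was lowest in PTN 2 and highest in PTN 3. The Control libraries did not show such a reversal, since Pax6 was highest in Control 2 and Gsx1 lowest in Control 3. This pair was picked after the values were seen, and a link between the 2 genes was not tested. In FPKM, Emx2 stood at 2.26, 1.25 and 1.78 times Pax6 in PTN 1, PTN 2 and PTN 3 and at 1.09, 0.807 and 0.742 times in Control 1, Control 2 and Control 3, with no overlap between the groups.

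Neurog2, a proneural basic helix-loop-helix factor that drives dorsal progenitors into glutamatergic neurogenesis, was scarce in all libraries. It was counted 2, 1 and 0 times in PTN libraries 1 to 3, against 13, 17 and 10 times in Control libraries 1 to 3. Summed, 3 PTN and 40 Control counts give a depth-scaled ratio of 0.0792, with an exact 95% interval of 0.0157 to 0.249 that covers counting error only. The 0 counts in PTN 3 allow up to 3 counts, or 0.156 CPM, and the exact Poisson 95% interval reaches 0.192 CPM, while the lowest Control library stood at 0.468 CPM. The fitted log2 fold change was -3.51. The call was lost without Control 1, Control 2 or Control 3, where the log2 fold change was -3.55, -3.42 and -3.66 in turn. Without PTN 1 the log2 fold change was -4.26, a difference of 19.2-fold against 11.4-fold with all libraries, and the call was kept. Neurog2 had no tested counterpart in its own family, since Neurog1 failed the filter on low counts and Neurog3 had 0 counts in all libraries.

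**Figure D2:**
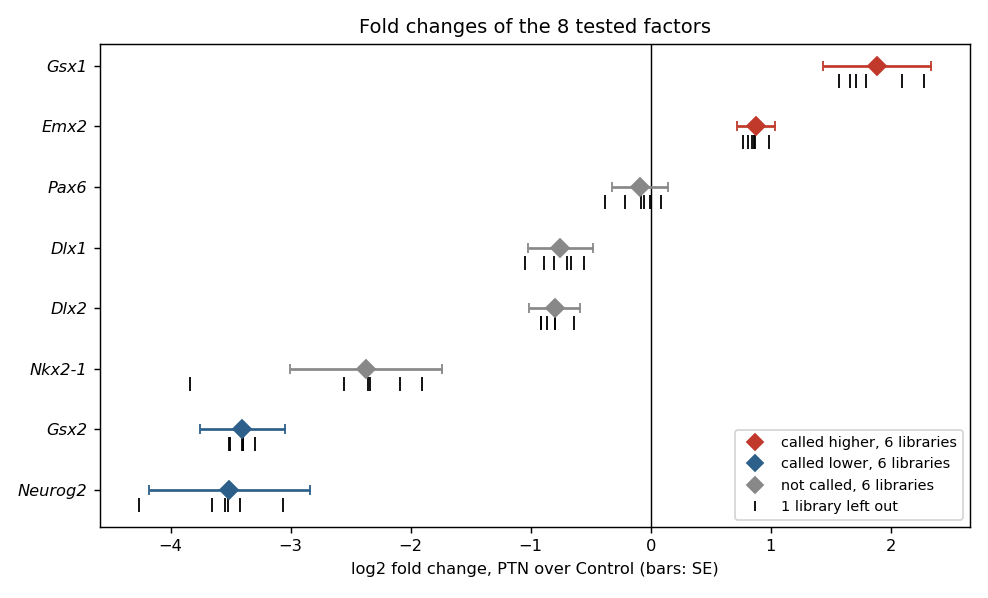
Log2 fold changes of PTN over Control (diamonds, bars are SE, n = 3 libraries each) for the 8 tested factors, with ticks under each for the fits that leave out 1 library. Gsx1 and Emx2 lay above 0 and Gsx2 and Neurog2 at -3.40 and -3.51; the tick of Nkx2-1 at -3.84 is the fit without PTN 1, and the ticks of Pax6 lie on both sides of 0.

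Ordered by FPKM, Emx2, Pax6 and Gsx1 led in PTN cells, at 19.1 ± 4.01, 11.4 ± 3.90 and 7.87 ± 4.25 FPKM, and neighbours among these 3 overlapped, whereas the lowest library of Gsx1, at 3.03 FPKM, lay just above the highest of Dlx2, at 2.94 FPKM. Dlx2 and Dlx1 followed, at 2.53 ± 0.525 and 1.52 ± 0.530 FPKM, and overlapped. Nkx2-1, Gsx2, Dlx5 and Neurog2, in this order, all averaged at or under 0.173 FPKM, and neighbours among them overlapped. In Control cells Pax6 and Emx2, at 12 ± 1.71 and 10.3 ± 0.775 FPKM, overlapped at the top. Dlx2 came next, at 4.43 ± 0.396 FPKM, then Dlx1 and Gsx1, at 2.20 ± 0.217 and 2.13 ± 0.614 FPKM, which overlapped. Gsx2, at 1.47 ± 0.165 FPKM, and Nkx2-1, at 0.940 ± 0.156 FPKM, stood above Neurog2 and Dlx5, at 0.25 ± 0.04 and 0.120 ± 0.0656 FPKM (SD, n = 3 each throughout). Against the mean FPKM of all tested genes in the same group, Gsx2 was at the 0.988th percentile in PTN cells and the 16.7th in Control cells, and Gsx1 at the 43.7th in PTN cells and the 20.8th in Control cells.

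**Figure D3:**
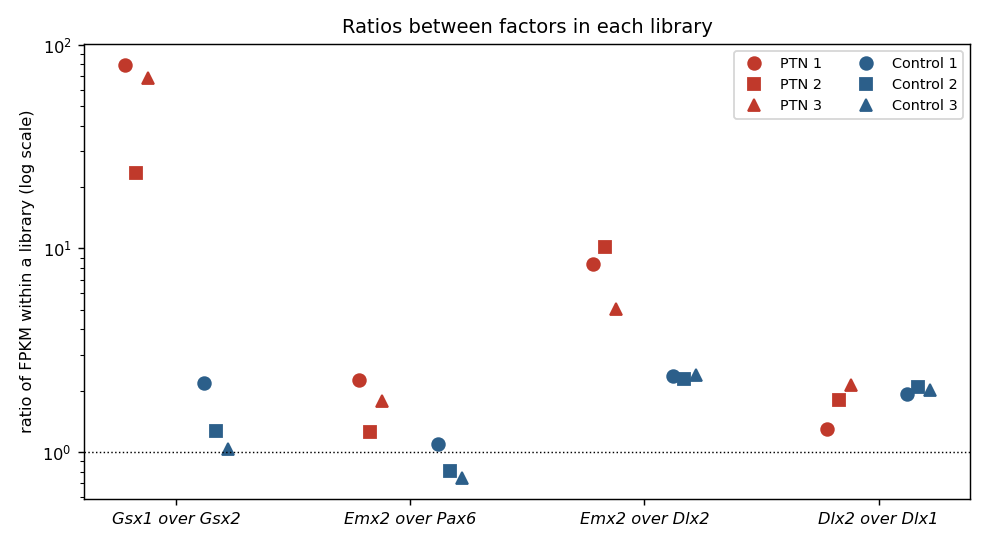
Ratios of the FPKM of a pair of factors within each library, PTN left (red) and Control right (blue), on a log axis; the dotted line marks equal FPKM. Gsx1 over Gsx2 lay between 23.3 and 79.8 in PTN libraries and between 1.03 and 2.19 in Control libraries, Emx2 over Dlx2 between 5.03 and 10.1 in PTN libraries and between 2.28 and 2.38 in Control libraries, and Dlx2 over Dlx1 overlapped between the groups.

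Among other ventral genes, listed by textbook role, none was called lower with Gsx2. Of 21 tested genes of this list, 3 rose and 0 fell by edgeR, and the median log2 fold change was 0.33, against 0.03 over all tested genes. DESeq2 and limma-voom also called 0 lower, and 1 gene, Sp9, had a negative fold change at an unadjusted p under 0.05 by edgeR. Ebf1, a factor of striatal neuron differentiation, rose to 4.82 ± 0.935 CPM in PTN cells, against 1.25 ± 0.204 CPM in Control cells (SD, n = 3 each), or 1.95 ± 0.28 on the log2 scale (SE; adjusted p = 0.0064 by edgeR). Zfp503, a zinc finger gene of the developing striatum, rose 2.40-fold (adjusted p = 0.0136 by edgeR, and 0.07 and 0.089 with Control 2 or Control 3 left out). Gad1, which encodes an enzyme that makes GABA, rose 2.28-fold (adjusted p = 0.0342 by edgeR, and 0.0608 to 0.147 when a library other than PTN 3 was left out), and its FPKM values overlapped between the groups. Gad2 stood at 11.4 ± 4.85 CPM in PTN cells and 12.5 ± 2.57 CPM in Control cells and was not called. Lhx6, Lhx8 and Isl1, markers of neurons leaving the ganglionic eminences, were at or near 0 in all libraries. Genes of the list called higher numbered 1 without Control 2 and 1 without Control 3.

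In the dorsal list 2 of 21 tested genes fell and 0 rose by edgeR, with a median log2 fold change of -0.16. DESeq2 called 1 higher, and 3 had a positive fold change at an unadjusted p under 0.05 by edgeR. Emx1, the close relative of Emx2 in the pallium, went the other way from it, with 0.219 ± 0.0571 CPM in PTN cells and 1.20 ± 0.262 CPM in Control cells (SD, n = 3 each) or -2.41 ± 0.42 on the log2 scale (SE; adjusted p = 0.0116 by edgeR, and 0.0585 and 0.0512 with Control 2 or Control 3 left out). Fezf2, a factor of deep-layer cortical neurons, was 5.07-fold lower, at 0.189 ± 0.130 CPM in PTN cells and 0.945 ± 0.207 CPM in Control cells (adjusted p = 0.0433 by edgeR, and 0.0561 to 0.14 when a library other than PTN 3 was left out). Genes at such levels rest on few counts, and with a filter of 1 CPM in 3 libraries 0 genes of the list were called lower. Emx1 and Fezf2 also passed the low-count filter through their Control counts, with at most 6 counts in any PTN library. Lhx2, a selector of cortical identity, was at 67.5 ± 9.76 CPM in PTN cells and 75.3 ± 5.68 CPM in Control cells and was not called. The neuronal genes Tbr1 and Eomes, which follow Neurog2 in cortical neurogenesis, failed the filter on low counts. Tbr1 was counted 3, 2 and 4 times in PTN libraries 1 to 3, against 1, 0 and 0 times in Control libraries 1 to 3. Eomes had 2, 2 and 4 counts in PTN libraries 1 to 3 and 2, 1 and 5 in Control libraries 1 to 3. Genes called lower numbered 1, 2, 2, 1, 0 and 0, and genes called higher 0, 0, 1, 0, 0 and 0, without PTN 1, PTN 2, PTN 3, Control 1, Control 2 and Control 3 in turn.

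Of 26 tested genes of the proneural list, which holds basic helix-loop-helix factors, their inhibitors and direct targets, 2 fell and 1 rose by edgeR, with a median log2 fold change of 0.03. Those that fell, Hey1 and Hes5, were Notch effectors that repress proneural genes. Hes1 and Hey2, of the same families, were not called, with log2 fold changes of 0.49 and -0.31 and overlapping groups. Hey1 fell to 78.4 ± 3.96 CPM in PTN cells, against 144 ± 1.46 CPM in Control cells (SD, n = 3 each; adjusted p = 0.00665 by edgeR). Hes5 fell 3.32-fold (adjusted p = 0.0151 by edgeR, and 0.0539, 0.064 and 0.0597 with PTN 1, Control 1 or Control 3 left out). Id1, an inhibitor of basic helix-loop-helix factors, rose 1.56-fold (adjusted p = 0.0388 by edgeR, and 0.0852 to 0.172 with PTN 1, Control 1, Control 2 or Control 3 left out). The proneural target genes Dll1, Dll3, Insm1, Rnd2 and Gadd45g were not called, with log2 fold changes of -0.74 for Dll3 to 0.27 for Gadd45g. Genes called lower numbered 1, 6, 4, 1, 2 and 1, and genes called higher 0, 2, 3, 0, 0 and 0, without PTN 1, PTN 2, PTN 3, Control 1, Control 2 and Control 3 in turn.

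**Figure D4:**
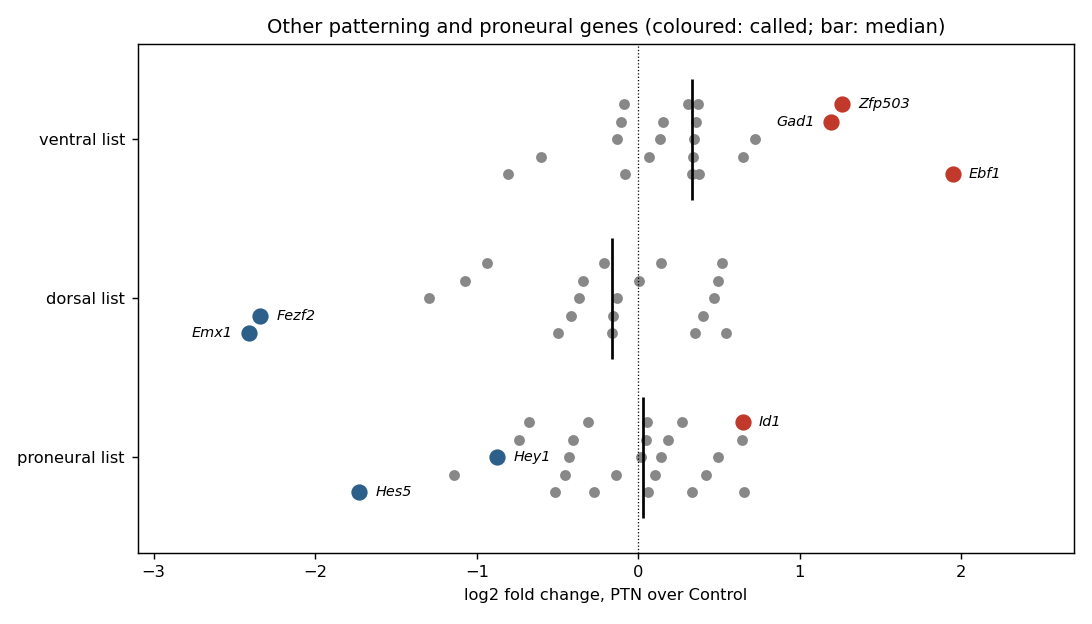
Log2 fold changes of PTN over Control for the tested genes of the ventral, dorsal and proneural lists (1 point a gene, spread vertically for legibility; the 9 factors themselves are not included). Named coloured points are called higher (red) or lower (blue), grey points are not called, and the vertical bars mark medians of 0.33, -0.16 and 0.03.

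Of 13 genes of midbrain, hindbrain and spinal cord, 6 had 0 counts in all libraries, among them Pax3 and Hoxa2, and the list summed to 3.70 to 7.14 CPM in PTN libraries and 1.68 to 2.11 CPM in Control libraries. Within it En2, a midbrain and hindbrain factor, rose 2.52-fold (adjusted p = 0.033 by edgeR, and 0.1 to 0.139 with PTN 1, Control 1, Control 2 or Control 3 left out). Gbx2 and En1 also lay higher in every PTN library, and Pax2 overlapped. Gbx2 was 4.67-fold higher and not called (adjusted p = 0.0682 by edgeR). It passed the low-count filter through its PTN counts, with at most 10 counts in any Control library. En1 was not tested, with 7, 13 and 8 counts in PTN libraries 1 to 3 and 1, 1 and 0 in Control libraries 1 to 3. The 7 genes of the diencephalon list summed to 26.5 to 32.9 CPM in PTN libraries and 29.2 to 30.9 CPM in Control libraries. Most of this came from Otx2, at 13.4 CPM in PTN cells and 11.3 CPM in Control cells, and Tcf7l2, at 14.5 CPM in PTN cells and 15.7 CPM in Control cells, neither of them called. Barhl2 of the same list fell 4.04-fold (adjusted p = 0.0076 by edgeR), and Six6, Lhx1 and Dbx1 were at 0.

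The members of the glial marker lists went in both directions. The 6 astrocyte markers, all counted, summed to 2390, 5290 and 3020 CPM in PTN 1, PTN 2 and PTN 3, against 7960, 7570 and 7480 CPM in Control 1, Control 2 and Control 3. Gfap, at 814 ± 756 CPM in PTN cells and 3652 ± 76.6 CPM in Control cells, and Aldoc, at 303 ± 140 CPM in PTN cells and 1264 ± 81.5 CPM in Control cells (SD, n = 3 each), fell and carried the difference in the sum. The call on Gfap was lost without PTN 1, Control 1, Control 2 or Control 3, and its 4.49-fold difference was 9.67-fold without PTN 2. The other 4 were not called, with log2 fold changes of 0.65 for S100b, 0.39 for Gja1, 0.24 for Aqp4 and -0.36 for Aldh1l1, and the median of the 6 was -0.059. PTN 2, the highest of the PTN libraries in this sum, was the lowest of them in Gsx1, Dlx1, Dlx2 and Nkx2-1 and the highest in Pax6. It was also the lowest in Dlx5, with 0 counts, but lay between PTN 1 and PTN 3 in Emx2, Gsx2 and Neurog2. The 7 oligodendrocyte lineage markers summed to 64.0 to 172 CPM in PTN libraries and 219 to 228 CPM in Control libraries. Of the 6 tested, Pdgfra and Cspg4 fell, at log2 fold changes of -1.96 and -0.85, and Opalin rose, at 2.55. The call was lost without PTN 1 for all 3 of these genes, and without other libraries too for Cspg4 and Opalin. Opalin was counted 69, 107 and 24 times in PTN libraries 1 to 3, against 17, 9 and 9 times in Control libraries 1 to 3. It passed the low-count filter through its PTN counts, so a rise could be called but not a fall. The 7 neuron markers summed to 298 to 503 CPM in PTN libraries and 252 to 383 CPM in Control libraries, most of it Map2, at 397 CPM in PTN cells and 287 CPM in Control cells. None of the 7 was called, 4 log2 fold changes were positive and 3 negative, and Tubb3 lay lower in every PTN library, at 17.6 ± 6.33 CPM in PTN cells and 29.5 ± 2.54 CPM in Control cells (SD, n = 3 each). Marker sums of microglia, endothelial and mural cells, and fibroblasts reached at most 3.75, 14 and 11 CPM in any library, and those of ependyma and choroid plexus 76.6 to 120 CPM in PTN libraries and 84.8 to 102 CPM in Control libraries. In these lists Pdgfrb fell 5.62-fold (adjusted p = 0.00187 by edgeR). Col3a1 fell 3.44-fold (adjusted p = 0.0391 by edgeR, and 0.0771 to 0.136 with PTN 1, PTN 2, Control 1 or Control 3 left out). Kdr lay higher in every PTN library and was not called. The part of these cell types in the values of the 9 factors was not tested.

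For each called factor, the 3 genes with the most similar pattern were taken as those with the smallest root mean square difference of centred log2 CPM over the 6 libraries, among 12179 tested genes of at least 1 CPM. For Gsx1 these were Tes, Aldh1a3 and Icam1, at 0.224, 0.255 and 0.295 log2 units. For Gsx2 they were Cntnap2, Tgm1 and Hspb6, at 0.126, 0.208 and 0.389. For Emx2 they were Tiam2, Stard9 and Srrm4, at 0.0651, 0.079 and 0.0898. For Neurog2 they were Erbb3, Sned1 and Uba1y, at 0.356, 0.371 and 0.375, with Uba1y on the Y chromosome. The closest match of Neurog2 was looser than those of the other called factors. Genes under 1 CPM, as Neurog2 itself was, were not considered. Aldh1a3, which makes retinoic acid, stood at 51.8 CPM in PTN cells and 11.2 CPM in Control cells.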

How the data were processed

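Neural stem progenitor cells given PTN or PBS were compared in bulk RNA-seq libraries. Per the labels' protocols, RNA was isolated on columns and libraries were made with a SMARTER mRNA kit. No source used here names the aligner, counter, strand handling, build or annotation. Per the file headers, the authors deposited a count and an FPKM value per gene and library. The deposited values are expected counts, 91.9 to 92.8% of them whole within 0.005 in each library, not scaled between libraries. The FPKM values, as deposited by the authors, are scaled to gene length and library size. Columns were matched to samples by group initial and replicate number.

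Counts were rounded, filtered with filterByExpr (13161 of 22322 genes kept), scaled by TMM (factors 0.993 to 1.01) and compared, PTN minus Control, with edgeR's quasi-likelihood test (edgeR 4.0.16, R 4.3.3), adjusted by Benjamini-Hochberg over all tested genes. The fits were tested on simulated data. An SE is the log2 fold change over the square root of F. One CPM stands for 19.3 to 26.3 counts. Alternatives used DESeq2 1.42.0 and limma 3.58.1. Gene lengths for the length alternative came from count over FPKM, for 99.9% of tested genes.

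The 9 factors and the lists were chosen with earlier results of these data known. Named list genes were up to 5 called genes by smallest p, and further genes were named after their values were seen. Intervals and floors (3 counts) cover counting error only. Protein sequences were not used here, and some genes of the lists are not reported here by name.

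Same-numbered PTN and Control libraries were compared by the correlation of their deviations from group means, and the numbers were not taken to pair the samples.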

Additional observations from a re-analysis of the deposited data

How the results depend on the processing

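Gsx2 kept its direction and its call in all 16 alternatives, with log2 fold changes of -3.52 to -2.73. The other tested factors kept their direction in every alternative run, except Pax6, whose log2 fold change lay between -0.385 without PTN 2 and 0.082 without PTN 3. Neurog2 was not tested under the filter of 1 CPM in 3 libraries, which it fails, and its log2 fold change was -1.59 by limma on log2(FPKM + 0.1). The number of genes called over the whole table, 1052, was 1852 by DESeq2, 1913 at an adjusted p under 0.1, and 331 to 2177 with 1 library left out. Of the 9 factors, 1 was called higher by limma-voom and by limma on log2(FPKM + 0.1), and 0 to 2 with 1 library left out. Those called lower numbered 4 with upper-quartile factors, without the low-count filter, by DESeq2 and at an adjusted p under 0.1, and 1 to 3 with 1 library left out. With 1 library left out, 1 to 3 ventral genes were called higher, 0 to 1 dorsal genes higher and 0 to 2 lower, and 0 to 3 proneural genes higher and 1 to 6 lower. Dorsal genes called higher numbered 1 by DESeq2 and at an adjusted p under 0.1. Dorsal genes called lower numbered 1 without the low-count filter and with the gene length trend removed, and 0 with a filter of 1 CPM in 3 libraries. Proneural genes called higher numbered 0 with upper-quartile factors, 3 by DESeq2 and 0 with the replicate block. The same-numbered libraries correlated at -0.493, 0.376 and 0.039 for numbers 1, 2 and 3. Deviations from a mean of 3 libraries depend on each other, so these values can neither show nor exclude a pairing. The block is a shared number that no label calls a pair. With the block 726 genes were called, and of the 9 factors 2 higher and 3 lower. Nkx2-1, Gsx2, Dlx5 and Neurog2 are limited by depth, with at most 23, 5, 5 and 2 counts in any PTN library. Fits on 5 libraries have less residual freedom than fits on 6.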
